A study of Mus musculus with 2 samples.

Results

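The 10 genes described here encode the surface proteins by which mouse hematopoietic stem cells (HSCs) are sorted, together with receptors and a reporter gene that are commonly read as HSC markers. They were taken by symbol, *Slamf1*, *Cd48*, *Cd34*, *Flt3*, *Kit*, *Ly6a*, *Procr*, *Esam*, *Tek* and *Fgd5*, and all 10 were found among the 24421 gene symbols in each of 2 RNA-seq libraries. One library came from cells labelled WT (*Ezh2* +/+, CreERT+/-) and the other from cells labelled Ezh2 KO (*Ezh2* Δ/Δ, CreERT+/-), both on a C57BL/6 background. *Ezh2* encodes the catalytic subunit of the complex that methylates histone H3 at lysine 27. In the study, CD45.2 marrow carrying the tamoxifen-activated Cre was transplanted into lethally irradiated CD45.1 recipients, tamoxifen was given on 5 consecutive days (100 µl of a 10 mg/ml solution each day), and HSCs were sorted 1 month later. Both groups thus carried Cre and a transplant history, and recipients can keep blood cells of their own. The ages of the mice, the number of mice behind each library and the promoter that drives Cre are not given in the sources used here.

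HSCs lie within the lineage-negative, Sca-1-positive, Kit-positive (LSK) fraction of marrow, which they share with multipotent progenitors. Within that fraction, long-lived HSCs display CD150 and little CD48, CD34 or Flt3, whereas progenitors gain CD34, CD48 and Flt3 and lose CD150 as they approach commitment. These cells were gated as CD150+CD48-CD34-Flt3- LSK, so 6 of the 10 genes encode gate proteins. The gate asked for the products of 3 of them (*Kit*, *Ly6a* and *Slamf1*) and against the products of the other 3 (*Cd34*, *Flt3* and *Cd48*). The remaining 4 (*Procr*, *Esam*, *Tek* and *Fgd5*) were outside the gate. A gate acts on surface protein, and the values below are of RNA.

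The WT library held 5763118 counts in genes and the KO-labelled library held 4157280. *Ezh2* itself had 166 and 129 counts, a log2 ratio of 0.08 with a 95% interval of -0.27 to 0.42, so the gene-level count did not check the knockout label, and the second library is called KO-labelled here. *Xist*, which is transcribed from the inactive X chromosome of females, had 801 and 4 counts. The Y-linked genes *Ddx3y*, *Eif2s3y*, *Kdm5d* and *Uty* had 0 counts each in WT and 275, 194, 106 and 106 in the other library, so sex and genotype cannot be told apart. There was 1 library per group and therefore no replicate check on any value. Ratios put the KO-labelled library over WT, on the scale of log2 of the normalised count plus 1. Their 95% intervals cover counting error only and leave out variation between animals or libraries. They take each read as independent. PCR copies were not marked, so the true counting error may be larger than these intervals show. In bulk RNA, fewer cells of a type and less RNA per cell cannot be told apart.

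Of the 10 genes, 0 were called different between the libraries, where a call asked for an adjusted value below 0.01 in an exact binomial test of the 2 counts and a difference of at least 2-fold. Across the 12588 genes tested, 2.8% were called higher in the KO-labelled library and 2.3% lower. None of the 10 reached 2-fold, beside 4.91% of tested genes at least 2-fold higher and 3.9% at least 2-fold lower. At such shares, 0 of 10 does not set the members apart from other genes. The scatter of all genes was also widest at low counts, where only *Cd48* of the 10 lay. The counting interval lay above 0 for 3 of the 10 (*Cd34*, *Flt3*, *Ly6a*) and below 0 for 3 (*Slamf1*, *Esam*, *Fgd5*), beside 19.2% and 20.8% of all tested genes. The median log2 ratio of the 10 was 0.03, against -0.00 for all genes tested. *Flt3* at the upper end and *Slamf1* and *Fgd5* at the lower end lay farthest from 0, and these 3 were the members called when the fold limit was lowered to 1.5.

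**Figure D1:**
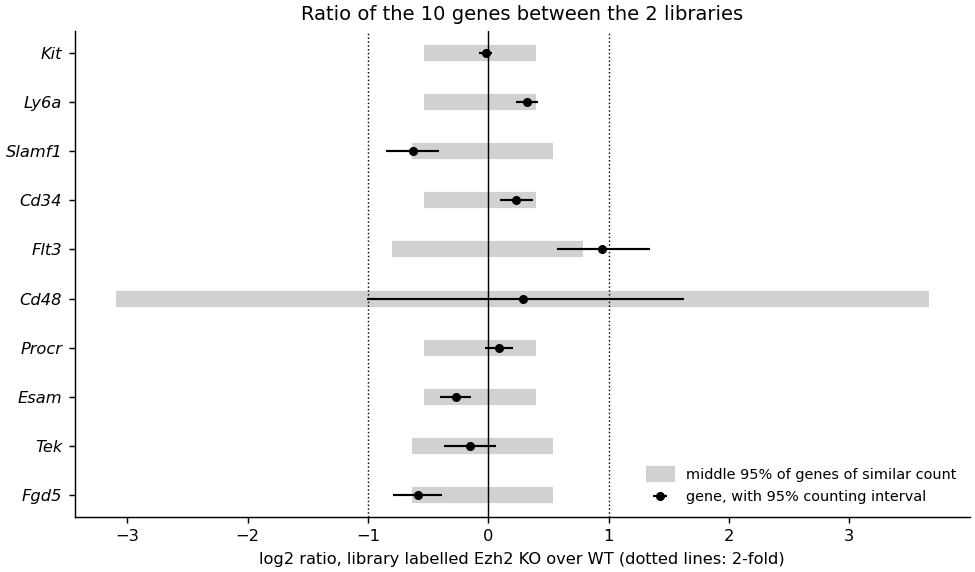
Log2 ratio of each of the 10 genes (points, KO-labelled library over WT) with its exact 95% interval of counting error (lines), beside the grey bar that holds the central 95% of tested genes of like mean count. *Flt3* at 0.95 lay above its bar of -0.80 to 0.79, *Fgd5* at -0.59 lay inside its bar of -0.63 to 0.53, and the interval of *Cd48* ran from -1.01 to 1.62.

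Among the genes whose protein the gate required, *Kit* was level and *Slamf1* was lower in the KO-labelled library. *Kit* encodes the receptor tyrosine kinase for stem cell factor (chromosome 5, 75574916 to 75656722, plus strand, GRCm38). It had 6062 (WT) and 4394 counts. Normalised, these were 5202 and 5120.4, a log2 ratio of -0.02 with an interval of -0.08 to 0.03, the narrowest among the 10. Per length, *Kit* stood at 118.0 RPKM (reads per kilobase of exon scaled to a common total of gene counts) in WT and 118.6 RPKM in the KO-labelled library.

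*Ly6a* encodes Sca-1, a lipid-anchored surface protein (chromosome 15, 74994877 to 74998031, minus strand). It had 2019 and 1858 counts, or 1733 and 2165 after normalisation. Its log2 ratio of 0.32 (interval 0.23 to 0.41) was above 0 by more than counting error, yet 12.6% of the 1259 tested genes in its group (of 10 groups by mean count) lay at least as far from 0. At 290.7 RPKM in WT and 370.9 RPKM in the other library, *Ly6a* had the highest level of the 10 in both. In its family, 4 of 9 genes found in the files were tested, counting *Ly6a*, and 0 were called. *Ly6e* stood at 444.8 and 486.2 RPKM.

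*Slamf1* encodes CD150, a homophilic receptor of the SLAM family (chromosome 1, 171767127 to 171801184, plus strand). It had 520 counts in WT and 248 in the KO-labelled library, or 446.2 and 289.0 after normalisation. WT was thus 1.54-fold above the other library, a log2 ratio of -0.62 with an interval of -0.85 to -0.41. Of the 1259 genes of like count, 3.89% had a ratio as far from 0. Per length the level was 14.7 RPKM (interval 13.4 to 15.97) in WT and 9.69 RPKM (8.52 to 10.97) in the other library, and these intervals did not overlap.

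Other SLAM family receptors, most of which lie beside *Slamf1* on the chromosome, were tested in 5 of 9 cases, counting *Slamf1* and *Cd48*, and 0 were called. The median log2 ratio of the 5 was 0.04. *Cd84* had 638 and 418 counts (log2 ratio -0.17, interval -0.35 to 0.01), and *Ly9* had 199 and 151 (0.04, interval -0.27 to 0.36). The ratio of *Slamf1* to *Cd84*, which does not depend on the scaling of the libraries, was 0.728 times as large in the KO-labelled library as in WT (interval 0.596 to 0.889). *Slamf6* and *Slamf7* had 0 counts in both libraries, which allows up to 0.521 CPM (counts scaled to that common total, without length) in WT and 0.722 CPM in the other library. Cells of the megakaryocyte lineage share several HSC surface markers, and their 8 listed markers summed to 359.9 CPM in WT and 278.1 CPM in the other library, with 0 of 8 called and none at 0. The counting interval lay below 0 for 3 of the 8 and above 0 for 0, beside 20.8% and 19.2% of all tested genes. The 3 were *Itga2b* (875 and 401 counts, log2 ratio -0.68), *Pf4* (415 and 195, -0.65) and *Gp1ba* (128 and 61, -0.62). The intervals of the others spanned 0, with log2 ratios of 0.39 (*Ppbp*), 0.17 (*Gp9*), 0.11 (*Gp1bb*), 0.05 (*Treml1*) and -0.09 (*Gp5*). The median log2 ratio of the list was -0.02. The part of megakaryocyte lineage cells in the *Slamf1* value was not tested.

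Among the genes whose protein the gate was set against, *Flt3* was higher, *Cd34* slightly higher and *Cd48* near the limit of the depth. *Flt3* encodes the receptor tyrosine kinase for Flt3 ligand and marks multipotent and lymphoid-primed progenitors (chromosome 5, 147330741 to 147400489, minus strand). It had 98 counts in WT and 140 in the KO-labelled library, the smaller library. Normalised, these were 84.1 and 163.1, a 1.94-fold difference with a log2 ratio of 0.95 and an interval of 0.57 to 1.34. This was short of the 2-fold limit, and 2.38% of 1259 genes of like count lay as far from 0. The level per length was 2.75 RPKM (interval 2.24 to 3.36) in WT and 5.45 RPKM (4.59 to 6.43) in the other library.

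The 6 genes listed for lymphoid progenitors summed to 5.21 CPM in WT and 27.7 CPM in the KO-labelled library, and *Dntt* and *Satb1* supplied nearly all of the second sum. *Dntt*, which adds nucleotides at antigen receptor joints, had 0 and 35 counts, at least 15.8-fold higher, and passed the filter on low counts through the KO-labelled library alone. *Satb1*, a chromatin organiser, had 29 and 74 counts and was called higher. *Il7r* and *Ccr9* had 0 and 1 counts each, *Ly6d* had 1 and 4, and *Rag1* had 0 in both. The list for granulocyte-monocyte progenitors summed to 727.2 and 724.8 CPM, with 1 of 7 genes called. That gene was *Fcgr3*, with 20 and 39 counts. *Elane*, a granule protease, had 860 and 374 counts (log2 ratio -0.76, interval -0.94 to -0.58), *Csf1r* had 24 and 5, and *Mpo*, myeloperoxidase, had 1794 and 1536 (0.22, interval 0.12 to 0.32). *Prtn3* and *Ctsg* were level, with log2 ratios of -0.07 and -0.01. The part of lymphoid progenitors in the *Flt3* value was not tested.

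*Cd34* encodes a sialomucin of the cell surface (chromosome 1, 194938819 to 194961279, plus strand). It had 957 and 829 counts, or 821.2 and 966.0 normalised, a log2 ratio of 0.23 with an interval of 0.10 to 0.37. Among genes of like count, 24.2% lay as far from 0. Despite the CD34-negative gate its RNA was well detected, at 22.8 RPKM in WT and 27.4 RPKM in the other library, above 88.3% and 90.0% of genes. Its exons overlap those of the opposite-strand gene *Gm16897* over 148 bases, and without a stated strand setting reads there cannot be assigned to one or the other. Of its relatives, *Podxl* had a log2 ratio of 0.12 (interval -0.30 to 0.53).

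*Cd48* encodes a lipid-anchored ligand of CD244 and CD2 (chromosome 1, 171682009 to 171705258, plus strand). It had 12 counts in WT and 11 in the KO-labelled library, or 10.3 and 12.8 normalised. Its log2 ratio of 0.29 had an interval of -1.01 to 1.62, so no difference below about that width was detectable at this depth. The levels were 1.75 RPKM (interval 0.905 to 3.06) in WT, where 3 counts correspond to 0.438 RPKM, and 2.23 RPKM (1.11 to 3.98) in the other library, where they correspond to 0.607 RPKM. Its binding partners were scarce as well: *Cd244* had 0 and 5 counts and *Cd2* had 0 in both.

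**Figure D2:**
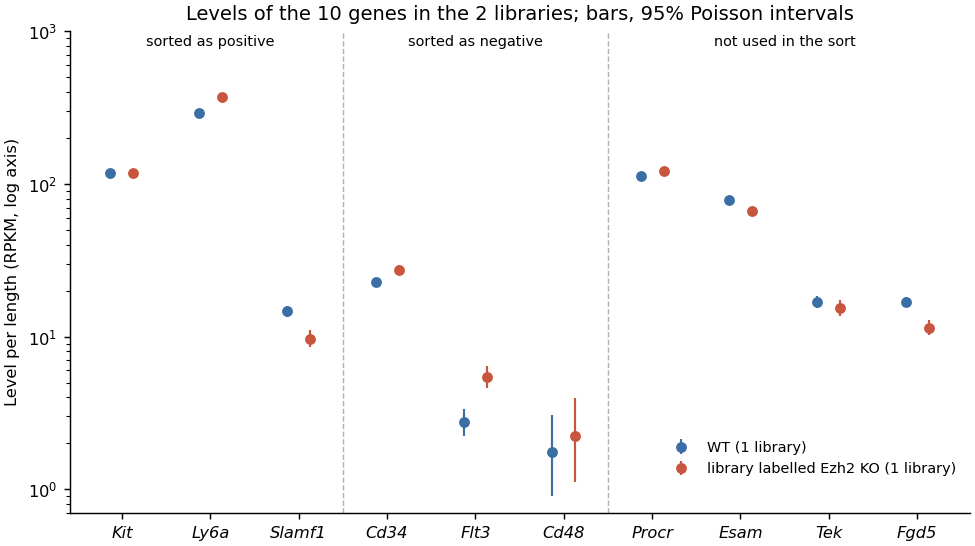
Level of each of the 10 genes in RPKM on a log axis, as 1 point per library with its 95% interval of counting error, ordered by role in the sort. The genes run from *Cd48* at 1.75 and 2.23 RPKM to *Ly6a* at 290.7 and 370.9 RPKM, and the points of *Flt3* and *Slamf1* stand 5.32-fold apart in WT and 1.78-fold apart in the KO-labelled library.

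The gate genes were then set against each other, since a ratio within a library needs no scaling between libraries. The 3 genes gated against made up 6.05% of the summed RPKM of the 6 gate genes in WT and 6.56% in the KO-labelled library. By raw counts the share was 11.04% (Wilson 95% interval 10.4 to 11.7) and 13.1% (12.4 to 13.9). These shares rested mostly on a few genes. In WT, *Cd34* supplied 22.8 of the 27.3 RPKM gated against, and *Ly6a* 290.7 of the 423.4 RPKM gated for. In the other library these were 27.4 of 35.0 and 370.9 of 499.2 RPKM. By raw counts, *Cd34* supplied 957 of 1067 and 829 of 980, and *Kit* 6062 of 8601 and 4394 of 6500. *Flt3*, *Cd48* and *Slamf1* thus weighed little in the shares. The level of *Slamf1* was 5.32 times that of *Flt3* in WT and 1.78 times in the other library. The *Flt3* to *Slamf1* ratio was accordingly 2.995 times as large in the KO-labelled library (interval 2.20 to 4.09). *Flt3* and *Slamf1* had the highest and lowest log2 ratios of the 10, so this pair shows the widest contrast by its choice. Against *Kit*, which was level, *Flt3* was 1.97 times as large (interval 1.51 to 2.59), *Ly6a* 1.27 times (1.18 to 1.37), *Cd34* 1.195 times (1.08 to 1.32), *Slamf1* 0.658 times (0.561 to 0.771) and *Fgd5* 0.676 times (0.584 to 0.782). The *Slamf1* to *Cd48* level ratio was 8.37 in WT and 4.35 in the other library, and the interval for its reverse, 0.756 to 4.83 times, spanned 1.

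Of the 4 genes outside the gate, *Fgd5* and *Esam* were lower in the KO-labelled library by more than counting error, and the intervals of *Procr* and *Tek* spanned 0. *Fgd5* (chromosome 6, 91978878 to 92076004, plus strand) is the exception among the 10, since it encodes an intracellular exchange factor for the GTPase Cdc42 and no surface receptor. Its use as an HSC reporter is the reason it is grouped here. It had 610 (WT) and 299 counts, or 523.5 and 348.4 normalised, which put WT 1.502-fold higher. The log2 ratio was -0.59 (interval -0.79 to -0.39), and 4.77% of genes of like count lay as far from 0. Its level was 16.8 RPKM in WT and 11.4 RPKM in the KO-labelled library.

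In the *Fgd* family, 5 of 6 genes were tested and 1 was called. That gene was *Fgd3*, with 85 and 26 counts, 2.41-fold higher in WT. *Fgd2* had a log2 ratio of 0.76 (interval 0.43 to 1.11), which did not reach the call. *Cdc42*, the target of *Fgd5*, is on the list of ligands and partners described below.

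*Esam* encodes an adhesion molecule of endothelial and HSC junctions (chromosome 9, 37528078 to 37538319, plus strand). It had 1289 and 787 counts, or 1106 and 917.1 normalised, a log2 ratio of -0.27 with an interval of -0.40 to -0.14. Among genes of like count 18.1% lay as far from 0. In RPKM it stood at 78.0 in WT and 66.0 in the other library. Of 5 tested junction proteins of the immunoglobulin family, counting *Esam*, 1 was called: *Jam2*, with 166 and 54 counts, was 2.26-fold higher in WT. *Jam3* had a log2 ratio of -0.57 (interval -0.87 to -0.28), and *F11r*, also a junctional adhesion molecule, one of -0.15.

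*Procr* encodes the endothelial protein C receptor, which marks HSCs at high purity in mouse marrow (chromosome 2, 155751117 to 155755471, plus strand). It had 1314 and 1029 counts, or 1128 and 1199 normalised, and a log2 ratio of 0.09 with an interval of -0.03 to 0.21. Its level was 112.3 RPKM in WT and 121.9 RPKM in the other library, next to that of *Kit*. *Tek* encodes Tie2, the receptor of the angiopoietins (chromosome 4, 94739289 to 94874976, plus strand). It had 456 and 302 counts, or 391.3 and 351.9 normalised, and a log2 ratio of -0.15 (interval -0.37 to 0.06). *Tie1*, its only close relative, had 2419 and 1588 counts and a log2 ratio of -0.17, and neither was called.

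*Procr*, *Esam*, *Tek* and *Fgd5* are also expressed by vascular endothelium. The list of 11 endothelial markers summed to 656.1 CPM in WT and 695.4 CPM in the KO-labelled library, and 0 of its 7 tested genes were called. *Tie1*, which HSCs also express, supplied most of that sum. Of the listed genes, *Cdh5* (VE-cadherin) and *Sox17* had 0 counts in both libraries, and *Flt1* had 1 and 0. Others of the list were detected: *Egfl7* had 748 and 710 counts, *Pecam1* 281 and 326 (log2 ratio 0.65, interval 0.42 to 0.89), *Emcn* 215 and 165, *Kdr* 82 and 69 and *Cldn5* 19 and 15. The part of endothelial cells in the values of these 4 members was not tested.

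Promoter sequence is shown for the 3 genes that differed by at least 1.5-fold, *Slamf1*, *Fgd5* and *Flt3*, because promoters dense in CG dinucleotides are a known site of action of the complex to which Ezh2 belongs. The bases come from RefSeq (GRCm38.p6), run 5′ to 3′ on the strand of the gene, stop before the first annotated base of the gene, and have each CG in capitals. The stretches are chr1:171766882-171767126 (plus strand) for *Slamf1*, chr6:91978715-91978877 (plus strand) for *Fgd5* and chr5:147400490-147400739 (minus strand) for *Flt3*.
Slamf1: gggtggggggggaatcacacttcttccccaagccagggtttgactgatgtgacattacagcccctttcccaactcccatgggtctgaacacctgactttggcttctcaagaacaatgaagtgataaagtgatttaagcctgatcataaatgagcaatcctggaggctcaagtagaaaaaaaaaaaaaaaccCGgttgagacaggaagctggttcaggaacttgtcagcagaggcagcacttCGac
Fgd5: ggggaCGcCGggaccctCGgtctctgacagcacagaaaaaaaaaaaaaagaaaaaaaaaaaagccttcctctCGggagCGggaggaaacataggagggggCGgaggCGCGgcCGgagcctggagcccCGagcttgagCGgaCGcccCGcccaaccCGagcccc
Flt3: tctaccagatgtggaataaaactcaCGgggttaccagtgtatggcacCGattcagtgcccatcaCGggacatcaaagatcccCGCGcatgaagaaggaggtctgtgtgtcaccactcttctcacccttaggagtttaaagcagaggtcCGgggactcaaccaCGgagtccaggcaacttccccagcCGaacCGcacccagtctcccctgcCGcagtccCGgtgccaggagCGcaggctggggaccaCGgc
The printed stretches hold 2 CG dinucleotides for *Slamf1* (245 bases), 14 for *Fgd5* (163 bases) and 13 for *Flt3* (250 bases). The counts compared next are over the full 250 bases before the RefSeq start, which for *Fgd5* and *Slamf1* run past the printed end into bases that GENCODE places in the gene. Over that length *Slamf1* had 3 CG dinucleotides, *Flt3* 13 and *Fgd5* 31, and the median of 32851 promoters of that length was 6. As many or more were held by 71.0% of all promoters for *Slamf1*, by 31.5% for *Flt3* and by 5.19% for *Fgd5*. Of the 3, *Slamf1* had the fewest and *Fgd5* the most. Whether promoter CG content bears on these ratios was not tested. Of the other members, *Kit* had 17 or 18 by its 2 starts, *Procr* 13, *Cd34* 6, *Cd48* 4 and *Tek* 2. The table held 8 of the 10 members. *Ly6a* and *Esam* were not matched.

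Ordered by RPKM, the 10 genes ran in WT from *Ly6a* through *Kit*, *Procr*, *Esam*, *Cd34*, *Fgd5*, *Tek*, *Slamf1* and *Flt3* to *Cd48*. Of the 9 neighbouring pairs, 6 differed by more than counting error. The pairs that did not were *Kit* and *Procr* (ratio 1.05, interval 0.990 to 1.12), *Fgd5* and *Tek* (ratio 1.00) and *Flt3* and *Cd48* (ratio 1.57, interval 0.861 to 3.15). In the KO-labelled library, 7 of 9 pairs differed. There *Procr* and *Kit* did not differ, nor did *Fgd5* and *Slamf1*. *Tek* stood above *Fgd5*, and the *Fgd5* to *Tek* ratio was 0.740 times its WT value (interval 0.602 to 0.909).

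**Figure D3:**
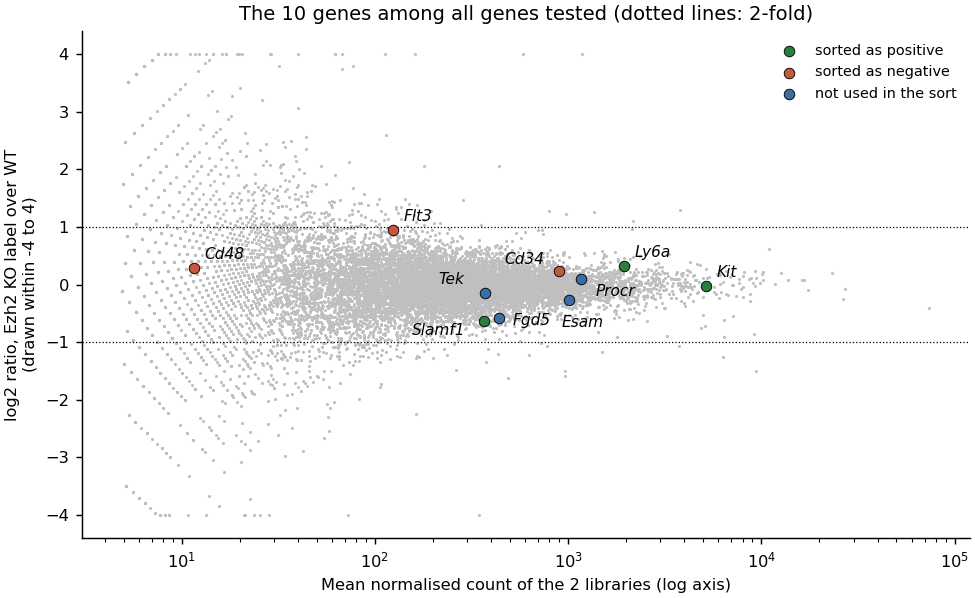
Log2 ratio (KO-labelled library over WT) against mean normalised count on a log axis for the 12588 genes tested (grey), with the 10 members coloured by their role in the sort and ratios beyond the axis drawn at its edge. All 10 lie inside the 2-fold lines, and the scatter of all genes widens toward the low counts where *Cd48* sits.

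Receptors were next read beside their ligands and partners, 13 genes of which 7 were tested and 1 was called, lower. That gene was *F2r*, the thrombin receptor through which the protein C receptor also signals. It had 2423 and 788 counts, 126.0 and 56.8 RPKM, and a log2 ratio of -1.18 (interval -1.30 to -1.06). The median log2 ratio of the 7 was -0.28.

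Several of the ligands were at or near 0. *Kitl*, the ligand of *Kit*, and *Proc*, the ligand of *Procr*, had 0 counts in both libraries. *Flt3l*, the ligand of *Flt3*, had 104 and 63 counts, a log2 ratio of -0.28 (interval -0.76 to 0.18). *Angpt1*, the activating ligand of *Tek*, was by contrast abundant, with 5581 and 4470 counts. Its RPKM of 186.1 and 206.6 was far above the 16.8 and 15.4 of its receptor, and its log2 ratio was 0.12 (interval 0.06 to 0.18). *Cdc42* had a log2 ratio of -0.11.

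Downstream of *Kit* and *Flt3*, 22 of 22 listed signalling genes were tested and 0 were called, with a median log2 ratio of -0.03. *Socs2*, a feedback inhibitor of cytokine receptors, lay closest to a call, with 873 and 327 counts and a log2 ratio of -0.97 (interval -1.16 to -0.79). *Pik3cd*, a catalytic subunit of PI3 kinase, was at -0.58 (interval -0.70 to -0.46), and *Lyn*, a Src family kinase, at 0.40 (interval 0.22 to 0.58). The genes of highest mean RPKM on the list lay nearer to level, at 0.05 (*Ptpn6*), -0.13 (*Grb2*), -0.14 (*Stat5b*) and -0.15 (*Vav1*). Among the other receptors of the *Kit* and *Flt3* class, 0 of 4 tested were called, counting both, and *Csf1r* had 24 and 5 counts.

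Of 14 other genes used as HSC surface or reporter markers, 13 were tested and 1 was called, lower. That gene was *Gprc5c*, an orphan receptor, with 112 and 18 counts and a log2 ratio of -2.14 (interval -3.00 to -1.47). The list's median log2 ratio was -0.04. *Adgrg1*, an adhesion receptor, stood at 1045.1 and 1005.3 RPKM, and *Cd81*, a tetraspanin, at 212.8 and 225.7 RPKM. *Ctnnal1*, another reporter gene, had a log2 ratio of -0.70 (interval -1.02 to -0.39), and *Cd27*, a receptor on HSCs and progenitors, one of 0.49 (interval 0.35 to 0.64).

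**Figure D4:**
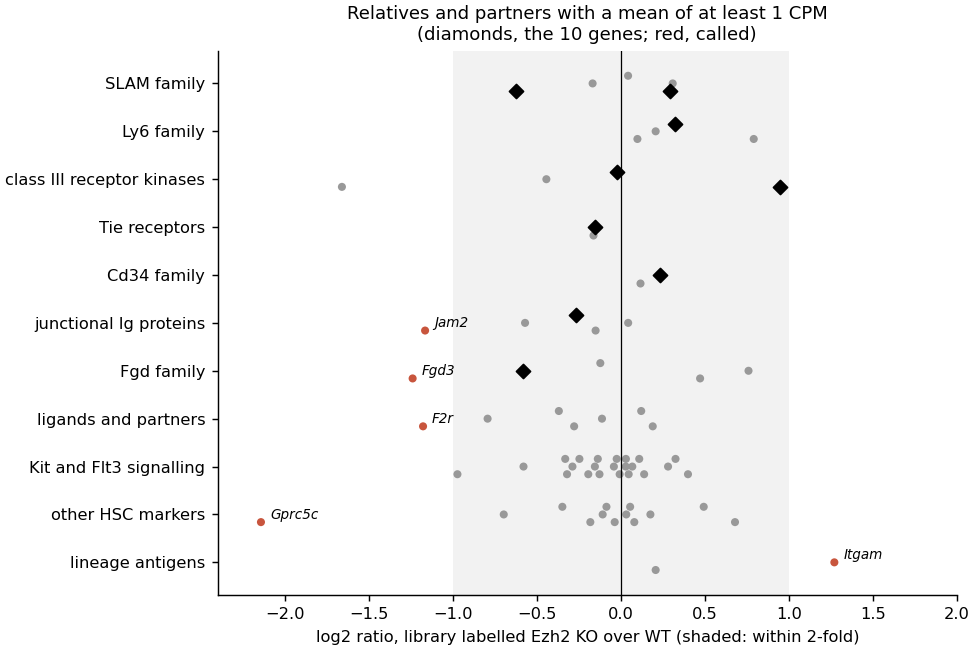
Log2 ratio (KO-labelled library over WT) of each tested gene of the related lists, 1 line per list, with called genes in red, the members as diamonds and the range within 2-fold shaded. *Gprc5c* at -2.14 and *Itgam* at 1.27 lie at opposite ends, and most genes lie in the shaded range.

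Antigens of lineage antibodies were read through 7 listed genes, of which 6 were in the files and 2 were tested. The list held no gene for B220 or Ter-119, so it covered the lineage antibodies only in part. *Itgam*, which encodes CD11b of myeloid cells, had 73 and 131 counts and was called 2.44-fold higher in the KO-labelled library. *Ly6c2*, the other gene tested, had 101 and 86 counts and a log2 ratio of 0.21 (interval -0.22 to 0.64). *Ly6c1* had 7 and 1 counts, and *Il7r* had 0 and 1. *Cd4* had 4 and 0 counts, and *Cd8a* had 0 and 2. RNA of genes that mark mature cells was detected in both libraries. The 10 neutrophil markers summed to 1408 CPM in WT and 3254 CPM in the KO-labelled library. Of these, 6 of 10 were called higher and none lower, beside 2.8% and 2.3% of all tested genes, and none was at 0. Among the 6, *Retnlg* had 1 and 20 counts and passed the filter on low counts through the KO-labelled library alone. The 7 eosinophil markers summed to 2.08 CPM and 772.4 CPM. *Prg2* and *Epx*, granule proteins of eosinophils, had 0 counts in WT and 2030 and 1000 in the other library, and *Prg3* and *Ear1* had 0 and then 116 and 49. With 0 counts in WT, these genes passed the filter on low counts through the KO-labelled library alone. Of the receptor genes on that list, *Siglecf* and *Ccr3* had 5 and 4 counts each, and *Il5ra* had 2 and 8. Whether these transcripts came from mature cells or from the sorted HSCs was not tested. Their part in the values of the 10 members was not tested either.

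**Figure D5:**
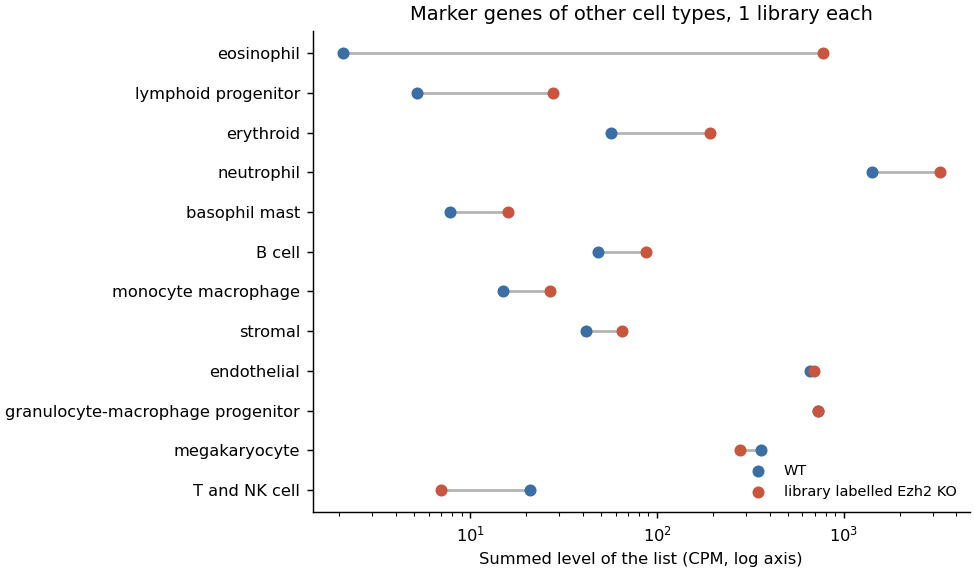
Summed level in CPM on a log axis of each of the 12 cell type marker lists, as 1 point per library. The eosinophil list is farthest apart, at 2.08 in WT and 772.4 in the KO-labelled library, and the granulocyte-monocyte progenitor list lies at 727.2 and 724.8.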

How the data were processed

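RNA was measured in 1 library of sorted HSCs per group. The authors deposited raw counts of reads per gene symbol, not normalised. By the study's methods and processing notes, reads were aligned to mm10 with TopHat2 2.0.13 and Bowtie2 2.1.0 on the iGenomes annotation. StringTie was named for raw counts, but each file ends with 5 entries under htseq-count names, so the counter is uncertain, and the strand setting is not given in the sources used here. Those 5 entries, among them 44.9% (WT) and 44.1% of all entries as no feature, were kept out of totals and tests.

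Counts were divided by DESeq2 1.42.0 size factors (1.17 for WT and 0.858 for the other library) in R 4.3.3, with edgeR 4.0.16 for the alternative scaling. Genes with a mean of at least 1 CPM (12588) were tested on raw counts by a two-sided exact binomial test conditional on their sum, with Benjamini-Hochberg adjustment, a threshold of 0.01 and a 2-fold limit. The test compares these libraries, not the conditions. Neither edgeR's nor DESeq2's own test was fitted, because 1 library per group leaves no residual degrees of freedom. Log2 ratios used a pseudocount of 1. Intervals are exact (Clopper-Pearson or Poisson) at 95%, and floors are 3 counts (0.521 and 0.722 CPM). RPKM used merged GENCODE M21 exons on GRCm38, matched for 24026 of 24421 symbols, 650 of them by older names. Genes were also ranked within 10 groups of about 1259 genes by mean count.

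Named genes were all 10 members, called genes of a list, otherwise the 4 highest by mean RPKM, and the *Ezh2*, *Xist* and Y-linked checks. Not every gene this rule selects is printed. A few further genes (*Socs2*, *Pik3cd*, *Lyn*, *Ctnnal1*, *Csf1r*, the ligands and cell type markers at or near 0) were chosen after their values were seen. No likeness of pattern was computed over 2 libraries. A few genes of the lists are not reported here and were left out of list counts and medians. Members and lists were chosen with earlier results of these data known. Scripts were tested on simulated data and used scipy 1.17.1, numpy 2.4.6, matplotlib 3.10.9 and pandas 2.3.3 under Python 3.11.15.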

Additional observations from a re-analysis of the deposited data

Results flagged for a closer look

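Reads aligned to more than 1 place, which no comparison of the report used, made up 12.3% of all entries in the KO-labelled library (1183074 reads) and 10.7% in WT (1412345 reads). The difference was larger than counting error if each entry is taken as independent, and with 1 library per group it was not tested over replicates.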

How the results depend on the processing

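No paired analysis was possible because there was only 1 library for WT and 1 for the KO label. For the same reason no library could be left out. Of 60 alternative log2 ratios of the 10 members, 59 kept their direction and side of the call. The exception was *Kit*, whose log2 ratio went from -0.02 to 0.0069 when libraries were scaled by total gene counts, a scaling that moved the median of all genes to 0.03. *Flt3* stayed between 0.92 and 0.99, *Slamf1* between -0.63 and -0.60 and *Fgd5* between -0.59 and -0.56. Members called went from 0 to 3 with a 1.5-fold limit (*Slamf1*, *Flt3*, *Fgd5*, the same 3 that were past that fold) and to 6 with no fold limit. Over all genes, the calls of 353 higher and 290 lower became 96 and 115 with at least 10 CPM, where fewer genes were tested, 626 and 636 with a 1.5-fold limit, 169 and 96 with a 4-fold limit, and 1218 and 1425 with none. They became 41 and 22 with an assumed coefficient of variation of 0.2 between replicates, and 8 and 2 with 0.4. The share of gate genes gated against was 9.30% in WT and 9.99% in the other library by the longest transcript, and 11.04% and 13.1% by raw counts. Without length, an alternative chosen after seeing the data, the *Slamf1* to *Cd48* ratio was 43.3 in WT and 22.5 in the other library. Scaling and testing without cell type and sex chromosome genes, also added after seeing the data, left 0 members called. That scaling shifted the ratio of the size factors by only -0.000407 on the log2 scale. The testing kept the main size factors. No member could therefore pass the 2-fold limit, and the 0 gives no information on other cells or sex. Depth limited *Cd48* most, at 12 and 11 counts.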

Other observations

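Marker lists of cells further from the HSC gate were read in the same libraries. The 7 erythroid markers summed to 56.6 CPM in WT and 191.7 CPM in the KO-labelled library, with 3 of 5 tested genes called higher. *Car1*, an erythroid carbonic anhydrase, had 197 and 607 counts, and *Klf1*, an erythroid transcription factor, had 51 and 93. The 8 B cell markers summed to 48.4 and 87.3 CPM, and the surrogate light chain genes *Vpreb1* and *Igll1* had 5 and 41 and 0 and 29 counts. Both genes passed the filter on low counts through the KO-labelled library alone. *Cd79a* had 21 and 53 counts and *Cd79b*, the most abundant of the list, 251 and 229. The 8 T and NK cell markers summed to 20.8 and 6.98 CPM, with 1 of 2 tested genes called higher and 1 lower. *Klrb1c*, which encodes NK1.1 and supplied 116 of the 120 counts in WT, was 6.10-fold higher there, with 14 counts in the other library. *Cd3g*, the gene called higher, had 0 and 9 counts and passed the filter on low counts through the KO-labelled library alone. *Cd3d* and *Cd3e* had 0 in both.

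The lists for monocytes and macrophages (14.9 and 26.7 CPM), for basophils and mast cells (7.81 and 15.9 CPM) and for stromal cells (41.5 and 64.9 CPM) were low in both libraries. *C1qb*, a complement gene of macrophages, had 33 and 59 counts and was called higher. *Adgre1* and the basophil protease gene *Prss34* had 0 and 9 counts each and passed the filter on low counts through the KO-labelled library alone. Of the stromal genes, *Col1a2* had 122 and 191 counts and *Cxcl12* 5 and 17, and both were called higher. *Cxcl12* likewise passed that filter through the KO-labelled library alone. *Pdgfrb* had 102 and 55, and *Pdgfra* and *Bglap* had 0 in both. The part of these cells in the values of the 10 members was not tested.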
